A study of Mus musculus with 16 samples.

Results

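Described here are 42 genes for solute carriers (Slc genes), the membrane transporters through which intestinal epithelial cells take up and pass on sugars, peptides, amino acids, vitamins, nucleosides, phosphate and trace metals. They were taken by name from a list of nutrient carriers that was chosen with earlier results of these data known. Their shares beside those of all genes are therefore descriptions and give no separate support for a change. All 42 were found among the 49585 genes of the count table. Of these, 37 had enough reads to enter the tests, which covered 12559 genes in all. The 5 carriers not tested were Slc7a15, Slc13a2, Slc19a3, Slc23a1 and Slc34a2.

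RNA sequencing covered 16 cultures of mouse small intestinal organoids, which are epithelial structures grown from isolated crypts, in 4 groups of 4. The fl/fl organoids carry an Atg16l1 gene, needed for autophagy, flanked by loxP sites. The ΔIEC organoids carry the same alleles plus Villin-cre, which removes Atg16l1 from intestinal epithelial cells. The mice were on a C57BL/6 background and aged 8 to 12 weeks. Organoids of each genotype were left untreated or given 10 ng/ml of recombinant mouse IL-22, a cytokine that acts on epithelial cells, for 24 h. By the labels each genotype has 2 organoid lines, and each group holds 2 cultures of either line (replicates 1 and 2 the first, 3 and 4 the second). The p-values therefore measure the spread over cultures of 2 lines per genotype. The genotype and the choice of lines cannot be told apart.

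The absorptive cell, or enterocyte, carries most of this transport. Its apical brush border holds sodium- or proton-driven importers such as SGLT1 for glucose and B0AT1 for neutral amino acids, and its basolateral membrane holds exporters and exchangers that pass the nutrient to the blood. Several carriers work as pairs, for example the light chains of the Slc7 family with the heavy chains Slc3a1 or Slc3a2, and several need a helper protein at the surface. IL-22 acts on epithelial cells through STAT3.

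Gene counts summed to 2135000 to 5574860 per culture (median 3499276). Atg16l1, the deleted gene, lay between 31.6 and 51.8 CPM (counts scaled to library size and composition) in the 8 fl/fl cultures and between 0.289 and 5.96 CPM in the 8 ΔIEC cultures. All 8 tested genes of a list of known IL-22 responses rose in both genotypes. Of 21 enterocyte markers, all were detected, and the summed level of that list had a median of 8764 CPM before and 5343 CPM after IL-22 in fl/fl, and of 9246 and 5786 CPM in ΔIEC cultures. Of the markers of immune cells 4 of 12, among them Cd3e, Itgax and Nkg7, and of stromal and endothelial cells 2 of 12, Dcn and Cdh5, had no read in any culture. At most 3 reads in every culture were found for 8 of 12 and 10 of 12. Other immune markers were detected: 3 had enough reads to be tested, and the summed level of that list was 11.2 to 19.5 CPM per culture.

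Levels of the carriers can be compared with each other roughly per length, as CPM per kb of exon. The length is that of all annotated exons of a gene merged. The transcript expressed may be shorter, so the order is approximate. In untreated fl/fl organoids only Slc5a1 (SGLT1, the apical sodium-glucose importer), Slc39a4 (ZIP4, the apical zinc importer) and Slc30a10 (a manganese exporter) exceeded 100, at 207 ± 17, 124 ± 33.7 and 107 ± 15.0 (SD, n = 4). Next came Slc16a1 (MCT1, a monocarboxylate carrier) at 79.4 ± 4.19, followed by Slc38a1 (a glutamine importer) at 42.5 ± 7.16 and Slc39a14 (ZIP14, a zinc, iron and manganese importer) at 41.0 ± 3.36. In this order Slc39a4 and Slc30a10, and Slc38a1 and Slc39a14, differed by less than the larger SD of the pair. In all, 20 of the 42 carriers were above 10 and 36 above 1. Some carriers known for the mature villus were low in these cultures: the peptide importer Slc15a1 (PEPT1) stood at 1.41 ± 0.435 and the neutral amino acid importer Slc6a19 (B0AT1) at 1.28 ± 0.464.

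The sequences just upstream of the genes that the results turn on are shown first, since several of them moved together. Each run is the 250 bases before the transcription start of the gene in RefSeq (GRCm38.p6), written 5′ to 3′ along the gene's strand. The first 3 belong to carriers that fell with IL-22, the next to Slc6a14, which rose in both genotypes, and Slc28a2, which rose in fl/fl, and the last pair to metal exporters that were lower in ΔIEC organoids. Capitals mark matches to letters searched on both strands, namely TTCNNNGAA (STAT), CAAAGTCCA (HNF4), TTTATNG (CDX), TGATGNAA (ATF4) and TGCACNC or TGCGCNC (core of the metal response element).
Slc5a1 (chr5:33103969-33104218, + strand): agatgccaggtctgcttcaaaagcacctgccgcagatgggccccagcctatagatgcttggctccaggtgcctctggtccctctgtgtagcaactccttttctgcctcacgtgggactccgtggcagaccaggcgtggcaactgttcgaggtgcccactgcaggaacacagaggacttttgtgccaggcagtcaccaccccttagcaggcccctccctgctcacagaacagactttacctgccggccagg
Slc2a2 (chr3:28697653-28697902, + strand): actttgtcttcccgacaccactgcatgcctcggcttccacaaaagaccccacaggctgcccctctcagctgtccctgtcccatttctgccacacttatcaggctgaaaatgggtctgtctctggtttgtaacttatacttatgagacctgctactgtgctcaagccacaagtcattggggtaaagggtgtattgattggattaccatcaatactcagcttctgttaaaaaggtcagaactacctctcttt
Slc46a1 (chr11:78465451-78465700, + strand): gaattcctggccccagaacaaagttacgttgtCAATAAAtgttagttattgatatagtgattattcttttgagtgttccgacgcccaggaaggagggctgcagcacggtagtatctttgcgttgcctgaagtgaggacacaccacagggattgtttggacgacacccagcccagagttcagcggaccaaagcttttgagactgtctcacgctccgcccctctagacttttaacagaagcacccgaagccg
Slc6a14 (chrX:21714650-21714899, + strand): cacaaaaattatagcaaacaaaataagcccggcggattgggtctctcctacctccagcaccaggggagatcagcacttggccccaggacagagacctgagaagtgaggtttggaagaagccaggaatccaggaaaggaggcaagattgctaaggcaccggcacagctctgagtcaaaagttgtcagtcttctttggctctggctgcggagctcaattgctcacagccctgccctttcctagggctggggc
Slc28a2 (chr2:122426185-122426434, + strand): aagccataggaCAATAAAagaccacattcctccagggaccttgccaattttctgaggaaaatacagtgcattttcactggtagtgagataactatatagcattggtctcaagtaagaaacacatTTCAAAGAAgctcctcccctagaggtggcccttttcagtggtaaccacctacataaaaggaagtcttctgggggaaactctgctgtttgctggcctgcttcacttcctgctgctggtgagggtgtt
Slc30a1 (chr1:191906531-191906780, + strand): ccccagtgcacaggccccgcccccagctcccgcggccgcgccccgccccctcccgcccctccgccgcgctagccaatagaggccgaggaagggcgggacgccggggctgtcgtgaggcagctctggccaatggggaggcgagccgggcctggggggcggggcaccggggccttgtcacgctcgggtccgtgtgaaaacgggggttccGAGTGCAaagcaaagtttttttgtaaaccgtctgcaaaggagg
Slc30a10 (chr1:185454598-185454847, + strand): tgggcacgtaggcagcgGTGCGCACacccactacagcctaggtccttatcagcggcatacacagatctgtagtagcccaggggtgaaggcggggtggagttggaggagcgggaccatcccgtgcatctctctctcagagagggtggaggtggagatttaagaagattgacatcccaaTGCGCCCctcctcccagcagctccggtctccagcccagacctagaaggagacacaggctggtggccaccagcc

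The STAT letters occurred in a promoter of 8.13% of the 27025 genes with a RefSeq promoter. Among the 33 carriers with such a promoter, they occurred in those of Slc28a2 and Slc25a36. In Slc28a2 the match TTCAAAGAA lay at positions -126 to -118 from the start. The HNF4 letters (0.451% of these genes) were found in Slc3a1, and the ATF4 letters (3.91%) in Slc7a7. The CDX letters (11.3%) were found in 4 carriers, among them Slc46a1 and Slc28a2. TGCACNC (11.8%) was found in 7 carriers, namely Slc15a1, Slc3a1, Slc19a1, Slc22a4, Slc29a1, Slc39a5 and Slc30a1, in the last at -43 to -37. TGCGCNC (14.0%) was found in 5, namely Slc7a8, Slc16a1, Slc29a1, Slc34a2 and Slc30a10. In Slc30a10 it occurred 3 times with 2 of the matches overlapping. Carriers of other nutrients than metals thus held these letters too. No match to these letters was found in the windows shown for Slc5a1, Slc2a2 and Slc6a14. The matches are descriptions of the letters, not binding sites.

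IL-22–treated organoids were compared with untreated ones within each genotype, to see which carriers moved with the cytokine. In fl/fl organoids 4 of the 37 tested carriers rose and 14 fell at an adjusted p below 0.01 (edgeR quasi-likelihood test, adjusted over all tested genes). Over all genes, 10.6% rose and 10.2% fell in this comparison. In ΔIEC organoids 3 carriers rose and 13 fell, where 9.83% of all genes rose and 7.65% fell. The median log2 fold change of the carriers was -0.32 in fl/fl and -0.29 in ΔIEC organoids, beside -0.05 and -0.01 over all genes. Because the carriers were chosen with earlier results known, these shares and medians are descriptions only. Of the 14 that fell in fl/fl, 11 (78.6%) also fell in ΔIEC organoids, which is 84.6% of the 13. The summed level of all 42 carriers had a median of 5022 CPM without and 3828 CPM with IL-22 in fl/fl cultures, and of 3518 and 2664 CPM in ΔIEC cultures.

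**Figure D1:**
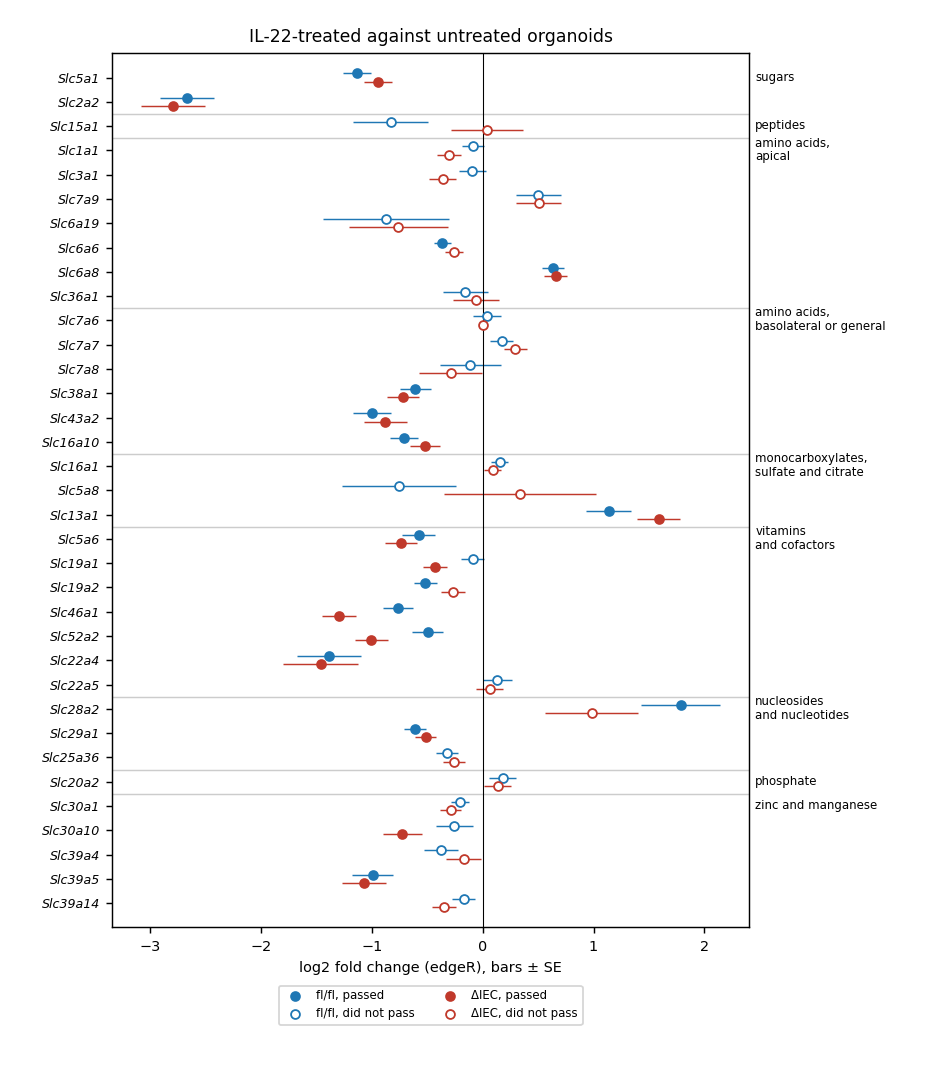
Log2 fold change with IL-22 (x axis, edgeR estimate, bars ± SE) for 35 tested carriers grouped by what they carry, in fl/fl (blue) and ΔIEC organoids (red). Filled points passed an adjusted p of 0.01; the sugar carriers and most vitamin carriers lie left of 0 in both genotypes, and Slc13a1 and Slc6a8 lie right of it in both. Slc6a14 and Slc6a20a are left out because 1 of their groups is close to no reads.

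Both sugar carriers fell in both genotypes. Slc5a1 (ENSMUSG00000011034.6, chr5:33104219-33162870), which brings glucose and galactose in from the lumen, stood at 840, 754, 888 and 912 CPM in untreated fl/fl cultures and at 344, 384, 416 and 401 CPM with IL-22. In ΔIEC organoids it stood at 574, 637, 525 and 498 CPM untreated and at 366, 323, 251 and 223 CPM with IL-22. The treated and untreated cultures did not overlap in either genotype. Over all tested genes, 15.4% lay wholly below and 15.4% wholly above with IL-22 in fl/fl. In ΔIEC organoids these shares were 13.2% and 14.1%. The log2 fold change was -1.13 ± 0.12 (SE) in fl/fl (adjusted p = 1.03e-06) and -0.95 ± 0.12 in ΔIEC organoids (adjusted p = 8.67e-06).

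Slc2a2 (GLUT2, ENSMUSG00000027690.13, chr3:28697903-28731359), the basolateral hexose exit, fell further than any other carrier that stayed clear of the detection floor. Its level was 134, 125, 131 and 128 CPM in untreated fl/fl cultures and 17.8, 14.7, 19.9 and 29.1 CPM with IL-22. In ΔIEC cultures it was 77.1, 76.3, 53.9 and 56.5 CPM untreated and 17.8, 13.6, 6.04 and 2.60 CPM with IL-22. Every treated culture was below every untreated one of its genotype, and within the treated ΔIEC group the second line lay below the first. The log2 fold change was -2.67 ± 0.24 in fl/fl (adjusted p = 9.69e-08) and -2.79 ± 0.29 in ΔIEC organoids (adjusted p = 4.5e-07).

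The peptide importer Slc15a1 did not pass in either genotype. It stood at 6.90 ± 2.13 CPM untreated and at 3.69 ± 1.35 CPM with IL-22 in fl/fl (SD, n = 4), and at 6.21 ± 1.31 and 6.47 ± 2.72 CPM in ΔIEC organoids. These groups overlapped.

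Of the 9 apical amino acid carriers, all tested, 2 rose and 2 fell in fl/fl, and 2 rose and none passed as lower in ΔIEC organoids. Slc6a14 (ATB0,+, ENSMUSG00000031089.7, chrX:21714896-21742355), an importer of neutral and cationic amino acids, was near absent without IL-22. It had 0.877, 0.510, 0 and 0.268 CPM in untreated fl/fl cultures and 7.52, 6.78, 16.9 and 14.4 CPM with IL-22. These are 6 reads against 186 over 4 cultures each, a ratio of 26.6 with an exact counting interval of 12 to 73.5. No read fell on it in the 4 untreated ΔIEC cultures.

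With IL-22, ΔIEC cultures had 0.810, 7.95, 7.56 and 1.16 CPM of Slc6a14, which are 2, 28, 25 and 4 reads. The mean of the group was at least 4.48-fold above that of the untreated group taken at the floor of 3 reads per culture, and each line had 1 high and 1 low culture. The adjusted p was 0.000125 in fl/fl and 0.0011 in ΔIEC organoids, and no treated culture came down to an untreated one in either. Among the treated ones, ΔIEC replicate 1 had 2 reads, below the floor of 3. Slc6a14 had at most 3 reads in any untreated culture, so it entered the tests only through its reads with IL-22. Its p-values and its place among the risers therefore give no separate support for a rise. Without the second fl/fl line, or without the first ΔIEC line, Slc6a14 no longer passed in that genotype.

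Slc6a8, the creatine importer, rose in both genotypes, from 116 ± 11.3 to 180 ± 21.8 CPM in fl/fl (log2 change 0.63 ± 0.10, adjusted p = 7.55e-05) and from 90.1 ± 8.97 to 142 ± 13.7 CPM in ΔIEC organoids (0.66 ± 0.10, adjusted p = 6.67e-05). Slc6a6, the taurine importer, fell in fl/fl from 226 ± 22.4 to 176 ± 5.13 CPM (log2 change -0.36 ± 0.08, adjusted p = 0.00143). In ΔIEC organoids its change of -0.26 ± 0.08 missed the threshold (adjusted p = 0.0183) and passed with the organoid line as a block (adjusted p = 0.00298).

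Slc6a20a, an importer of proline and other imino acids, fell in fl/fl to the floor. It stood at 2.34, 1.28, 8.16 and 6.42 CPM untreated and at 0, 0.701, 0.563 and 0.599 CPM with IL-22, which is 55 against 8 reads, a ratio of 8.01 (counting interval 3.79 to 19.5, adjusted p = 0.00186). The call was lost without untreated replicate 4 (edgeR adjusted p = 0.0103), without the second fl/fl line (0.202) and with summed lines (0.0441). In ΔIEC cultures it stood at 11.6, 11.1, 4.83 and 4.98 CPM untreated and at 2.43, 4.26, 1.81 and 2.89 CPM with IL-22. The ΔIEC groups did not overlap. The difference missed the threshold (adjusted p = 0.0137) and passed in 6 of 18 alternative analyses, among them the line as a block (adjusted p = 0.000162). Reads that align to several places were not counted, so levels of a gene with a close copy, here Slc6a20b, are uncertain.

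The heavy chain Slc3a1 and its light chain Slc7a9, which together form the cystine and cationic amino acid exchanger of the brush border, did not pass. Slc3a1 changed by -0.09 ± 0.12 in fl/fl and -0.36 ± 0.12 in ΔIEC organoids on the log2 scale (adjusted p = 0.0341 in the latter, 0.00343 with the line as a block). Slc7a9 changed by 0.50 ± 0.20 in both, with an adjusted p of 0.0621 and 0.0684 that became 0.00466 and 0.0034 with the block. Slc1a1 (the glutamate and aspartate importer), Slc6a19 and Slc36a1 (a proton-coupled carrier of small amino acids) also missed the threshold in both genotypes, with log2 changes between -0.87 and -0.06.

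Among the 7 basolateral or general amino acid carriers, 6 were tested, and the same 3 fell in both genotypes. Slc43a2 (LAT4, an exit for branched-chain amino acids and phenylalanine) fell by 1.00 ± 0.17 in fl/fl and by 0.88 ± 0.20 in ΔIEC organoids on the log2 scale (adjusted p = 0.000193 and 0.00195). Slc16a10 (TAT1, the aromatic amino acid exit) fell by 0.71 ± 0.13 and 0.52 ± 0.14 (adjusted p = 0.000239 and 0.00673). Slc38a1 stood at 842, 835, 626 and 624 CPM without and at 548, 512, 459 and 403 CPM with IL-22 in fl/fl cultures, and at 395, 488, 514 and 556 against 249, 248, 373 and 315 CPM in ΔIEC cultures.

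The treated cultures lay below the untreated ones for Slc38a1 in each genotype, with the fl/fl lines apart before treatment. Its log2 fold change was -0.61 ± 0.14 (adjusted p = 0.00243) and -0.72 ± 0.14 (adjusted p = 0.000729). The light chains Slc7a6, Slc7a7 and Slc7a8, exchangers that pair with Slc3a2, missed the threshold in both genotypes with log2 changes between -0.29 and 0.30. Slc7a15, not tested, had no read in 4 of 4 IL-22–treated ΔIEC cultures, against 2 to 6 reads in the untreated ones, whose mean was at least 1.16-fold above the floor of 3 reads per culture.

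Of the 4 carriers of monocarboxylates, sulfate and citrate, 1 rose in each genotype. Slc13a1 (NaS1, ENSMUSG00000029700.11, chr6:24088283-24168092), a sodium-driven sulfate importer, stood at 14.0, 12.8, 14.1 and 11.2 CPM without and at 35.6, 35.5, 21 and 23.1 CPM with IL-22 in fl/fl cultures. In ΔIEC cultures it stood at 16.7, 12.5, 20.1 and 12.9 CPM untreated and at 59.1, 49.7, 37.5 and 41.1 CPM with IL-22. No treated culture overlapped an untreated one, and in both treated groups the first line was the higher.

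The log2 fold change of Slc13a1 was 1.14 ± 0.21 in fl/fl (adjusted p = 0.000288) and 1.59 ± 0.20 in ΔIEC organoids (adjusted p = 4.11e-06). Slc16a1 and Slc5a8, sodium- or proton-coupled carriers of lactate and short-chain fatty acids, did not pass. The citrate and succinate importer Slc13a2, not tested, went the other way from Slc13a1: it had 2.05, 1.79, 2.72 and 6.96 CPM in untreated fl/fl cultures and 0, 1.17, 0.751 and 0 CPM with IL-22, and 35 reads against 1 in ΔIEC organoids. In both genotypes every treated culture was below every untreated one, for which an exact two-sided permutation test gives p = 0.0286, the smallest that 4 against 4 allow. This p is not adjusted, and 15.4% of all tested genes in fl/fl and 13.2% in ΔIEC organoids were wholly below in the same way.

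**Figure D2:**
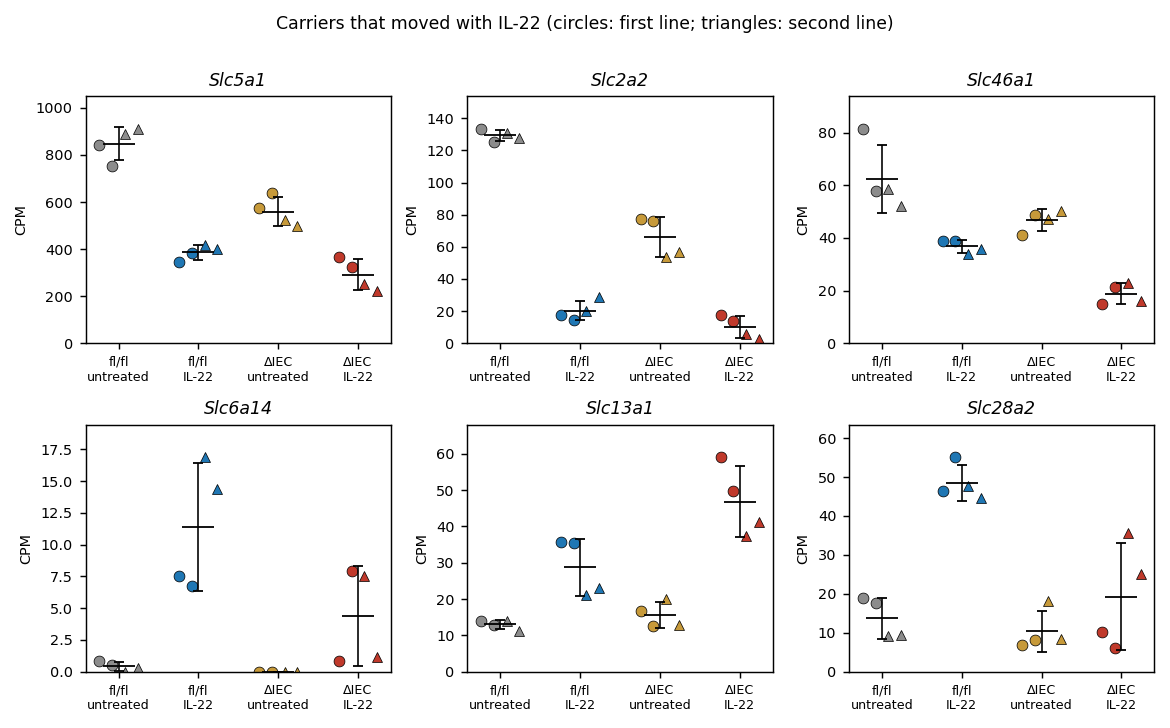
Level in CPM (y axis, from 0) of 6 carriers in each of the 16 cultures by group, circles for the first and triangles for the second line of a genotype; the bar and whiskers are mean ± SD of 4 cultures. Slc5a1, Slc2a2 and Slc46a1 are lower with IL-22 and Slc6a14 and Slc13a1 higher in both genotypes without overlap, while Slc28a2 with IL-22 reaches 44.6 to 55.2 CPM in fl/fl and 5.96 to 35.7 CPM in ΔIEC cultures.

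Of the 7 tested vitamin and cofactor carriers 5 fell in each genotype, and 4 of these 5 fell in both. Slc46a1 (PCFT, ENSMUSG00000020829.9, chr11:78465697-78472059), the proton-coupled folate importer, stood at 81.5, 57.7, 58.5 and 52.2 CPM without and at 38.8, 39.0, 34.0 and 35.7 CPM with IL-22 in fl/fl cultures. In ΔIEC cultures it stood at 41.0, 48.7, 47.0 and 50.3 CPM untreated and at 15.0, 21.3, 23.0 and 15.9 CPM with IL-22. The groups were apart in both genotypes. The log2 fold change was -0.77 ± 0.13 (adjusted p = 0.000217) in fl/fl and -1.29 ± 0.15 (adjusted p = 2.56e-06) in ΔIEC organoids.

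Slc22a4, a carrier of ergothioneine, fell from 8.19 ± 2.84 to 3.03 ± 0.215 CPM in fl/fl (log2 change -1.38 ± 0.29, adjusted p = 0.000995) and from 5.45 ± 1.77 to 1.94 ± 0.478 CPM in ΔIEC organoids (-1.46 ± 0.34, adjusted p = 0.00278). Slc5a6, the sodium-dependent carrier of biotin and pantothenate, fell by 0.58 ± 0.15 and 0.74 ± 0.15 on the log2 scale (adjusted p = 0.00524 and 0.000728). Slc52a2, a riboflavin carrier, fell by 0.50 ± 0.14 and 1.00 ± 0.15 (adjusted p = 0.00972 and 3.19e-05). In fl/fl the calls for these last 2 were close to the threshold and held in 8 and 6 of 19 alternative analyses.

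The thiamine carrier Slc19a2 fell in fl/fl (log2 fold change -0.52 ± 0.10, adjusted p = 0.000734) and changed by -0.27 ± 0.11 in ΔIEC organoids (adjusted p = 0.0654). The reduced folate carrier Slc19a1 fell in ΔIEC organoids (-0.43 ± 0.11, adjusted p = 0.00436) and changed by -0.09 ± 0.10 in fl/fl (adjusted p = 0.547). The carnitine importer Slc22a5 lay at 18.1 to 32.8 CPM over all 16 cultures and did not pass with IL-22 in either genotype. Slc19a3 (thiamine) and Slc23a1 (ascorbate) were at most 2.72 CPM in any culture and were not tested.

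The 3 carriers of nucleosides and nucleotides split. Slc28a2 (CNT2, ENSMUSG00000027219.13, chr2:122426477-122461137), a sodium-driven purine nucleoside importer, stood at 19.0, 17.6, 9.07 and 9.36 CPM without and at 46.3, 55.2, 47.7 and 44.6 CPM with IL-22 in fl/fl cultures (log2 fold change 1.79 ± 0.35, adjusted p = 0.000669). In ΔIEC cultures it stood at 6.84, 8.12, 18.1 and 8.31 CPM untreated and at 10.1, 5.96, 35.7 and 25.2 CPM with IL-22. In ΔIEC organoids the groups overlapped, with the treated first line at the untreated level and the treated second line above it.

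The change of Slc28a2 in ΔIEC organoids was 0.98 ± 0.42 on the log2 scale (adjusted p = 0.087, and 0.0098 with the line as a block). Slc29a1 (ENT1), an equilibrative nucleoside carrier, fell in both genotypes, from 79.1 ± 9.66 to 51.3 ± 3.66 CPM and from 91.1 ± 10.2 to 63.7 ± 4.22 CPM (adjusted p = 0.000101 and 0.0005). Slc25a36, a mitochondrial pyrimidine nucleotide carrier, changed by -0.32 ± 0.10 in fl/fl (adjusted p = 0.0138, and 0.000561 with the block) and by -0.26 ± 0.10 in ΔIEC organoids (adjusted p = 0.0624).

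The phosphate carrier Slc20a2 did not pass with IL-22. It stood between 38.5 and 62.5 CPM in all cultures. Slc34a2, the sodium-phosphate cotransporter, was too low to be tested, with 21 reads in untreated and 1 read in IL-22–treated ΔIEC cultures (ratio 20.3, counting interval 3.26 to 839).

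Of the 5 zinc and manganese carriers 1 fell with IL-22 in fl/fl and 2 in ΔIEC organoids. Slc39a5 (ZIP5, a basolateral zinc importer) fell from 60.0 ± 6.61 to 29.7 ± 4.14 CPM in fl/fl (log2 change -0.99 ± 0.19, adjusted p = 0.000378) and from 47.3 ± 7.21 to 22.7 ± 9.63 CPM in ΔIEC organoids (-1.07 ± 0.20, adjusted p = 0.000399). Slc30a10 fell in ΔIEC organoids (-0.72 ± 0.18, adjusted p = 0.00415) and changed by -0.26 ± 0.17 in fl/fl (adjusted p = 0.266). With the line as a block, Slc39a4 also passed in fl/fl (adjusted p = 0.000717) and Slc39a14 in ΔIEC organoids (adjusted p = 0.000588).

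Beside these changes, 10 of 21 enterocyte markers fell and 2 rose in fl/fl, and 8 fell and 2 rose in ΔIEC organoids, with a median log2 change of -1.15 and -0.74. Of 13 proliferation markers 12 fell in fl/fl and 4 in ΔIEC organoids, and of 12 stem cell markers 3 and 6. The part of these shifts in the carrier results was not tested. In bulk cultures fewer cells of a type and less RNA per cell cannot be told apart.

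With the line as a block, which pairs treated and untreated cultures of a line, 5 carriers rose and 16 fell in fl/fl and 5 rose and 17 fell in ΔIEC organoids. With the cultures of each line summed, leaving 2 values per group, 1 rose and 2 fell in fl/fl and 3 rose and 4 fell in ΔIEC organoids. None of the 9 calls that the block added passed in that fit, with adjusted p from 0.118 to 0.333. In ΔIEC organoids the calls for Slc16a10 and Slc19a1 held in 10 and 11 of 19 alternative analyses. Without the first or the second fl/fl line 7 and 9 carriers fell in fl/fl, and without the first or second ΔIEC line 6 and 8 fell in ΔIEC organoids. The share of all genes that passed was not taken for these fits. A gain or loss particular to the carriers cannot be read from these counts.

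Whether the response to IL-22 differed between genotypes was tested as an interaction. It passed for 0 of the 37 carriers by edgeR, by DESeq2 and by limma-voom, and for 0.0159% of all genes by edgeR. The lowest adjusted p was 0.552. Beside 912 of the 12559 tested genes, 3 of the 37 carriers had an unadjusted p under 0.05 by edgeR. These 3 carriers were Slc46a1, with an interaction of -0.53 ± 0.20 on the log2 scale, Slc52a2 (-0.51 ± 0.20) and Slc19a1 (-0.34 ± 0.15). For the sugar carriers the interaction was 0.19 ± 0.17 (Slc5a1) and -0.12 ± 0.39 (Slc2a2).

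Some helper proteins of these carriers were followed alongside. Slc3a2, the heavy chain of the basolateral exchangers, rose by 0.36 in fl/fl and 0.49 in ΔIEC organoids on the log2 scale with IL-22 (adjusted p = 0.000865 and 4.07e-05). Of the others described here, the scaffolds Pdzk1 and Slc9a3r1, the Slc16a1 chaperone Bsg and the sodium pump subunit Atp1b1 did not pass with IL-22.

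Of 107 further carriers of sugars, amino acids, organic anions, vitamins, nucleosides and minerals, 71 were tested. Of these, 17 rose and 6 fell in fl/fl (23.9% and 8.45%), and 14 rose and 8 fell in ΔIEC organoids (19.7% and 11.3%). Over all genes, 10.6% rose and 10.2% fell in fl/fl, and 9.83% and 7.65% in ΔIEC organoids. Both lists were chosen with earlier results of these data known, so their directions cannot be read as a contrast. Those with the smallest p among the risers were Slc28a3 (a nucleoside importer, log2 fold change 1.86 in fl/fl and 1.88 in ΔIEC), Slc7a11 (the cystine-glutamate exchanger, 0.98 and 1.17), Slc7a5 (a large neutral amino acid exchanger, 0.80 in fl/fl) and Slc39a1 (a zinc importer, 0.70 in ΔIEC). Among those that fell were Slc16a12 (a creatine carrier, -1.79 and -1.82), Slc26a2 (a sulfate carrier, -0.50 and -0.78), Slc44a3 (-0.48 in fl/fl) and the glutamate importer Slc1a3 (-1.09 in ΔIEC). No test of the difference between the lists was made.

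ΔIEC organoids were compared with fl/fl organoids within each treatment, to see which carriers moved with the loss of Atg16l1. Untreated, 0 of the 37 carriers were higher and 11 were lower in ΔIEC organoids, where 3.78% of all genes were higher and 5.98% lower. Of carriers with a positive difference 4 had an unadjusted p under 0.05, and neither DESeq2 nor limma-voom called any higher. Beside 4293 of the 12559 tested genes, 19 of the 37 carriers had an unadjusted p under 0.05 in either direction. With IL-22, 1 was higher and 10 were lower, where 9.91% of all genes were higher and 9.84% lower. The median log2 difference of the carriers was -0.27 untreated and -0.34 with IL-22, against -0.02 and 0.01 over all genes. Here too the choice of carriers with earlier results known makes these shares and medians descriptions only. Of the 11 and 10, 7 were lower in both treatments: Slc1a1, Slc25a36, Slc30a1, Slc30a10, Slc38a1, Slc39a4 and Slc39a14.

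Of the 5 zinc and manganese carriers 4 were lower in ΔIEC organoids in each treatment. Slc30a10 (ENSMUSG00000026614.6, chr1:185454848-185468762), which exports manganese, stood at 578, 571, 595 and 756 CPM in untreated fl/fl and at 204, 229, 232 and 286 CPM in untreated ΔIEC cultures. With IL-22 it stood at 421, 466, 639 and 566 CPM in fl/fl and 105, 109, 203 and 155 CPM in ΔIEC cultures. No ΔIEC culture reached an fl/fl one. Over all tested genes, 12.6% untreated and 14.2% with IL-22 were wholly lower in ΔIEC organoids in this way. The log2 difference was -1.40 ± 0.17 untreated (adjusted p = 3.04e-05) and -1.87 ± 0.18 with IL-22 (adjusted p = 7.93e-07).

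Slc30a1 (ZnT1, ENSMUSG00000037434.7, chr1:191906767-191913247), the zinc exporter of the plasma membrane, stood at 86.2, 79.9, 77.5 and 82.7 CPM in untreated fl/fl and at 45.7, 45.5, 39.4 and 54.8 CPM in untreated ΔIEC cultures. With IL-22 the values were 68.5, 72.4, 70.0 and 72.2 CPM against 40.9, 38.3, 35.1 and 37.6 CPM. The genotypes were apart in each treatment and the fl/fl cultures were close to each other. The log2 difference was -0.82 ± 0.09 (adjusted p = 6.57e-06) and -0.90 ± 0.09 (adjusted p = 1.35e-06).

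Slc39a4, the zinc importer of the brush border, was at 498, 449, 279 and 316 CPM in untreated fl/fl and 180, 210, 230 and 216 CPM in untreated ΔIEC cultures. The first fl/fl line was well above the second, and both were above all ΔIEC cultures. The log2 difference was -0.89 ± 0.16 untreated (adjusted p = 0.000678) and -0.69 ± 0.16 with IL-22 (adjusted p = 0.00256). Without the first fl/fl line or the first ΔIEC line, Slc39a4 no longer passed untreated.

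Slc39a14 stood at 433 ± 35.5 CPM in untreated fl/fl and 313 ± 30.7 CPM in untreated ΔIEC organoids (log2 difference -0.47 ± 0.10, adjusted p = 0.00381), and at 384 ± 26.9 against 246 ± 42.7 CPM with IL-22 (-0.64 ± 0.11, adjusted p = 0.000154). Slc39a5 was the zinc carrier that did not pass, with log2 differences of -0.32 ± 0.18 and -0.40 ± 0.21. Importers and exporters of zinc and manganese were thus both among the lower ones.

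**Figure D3:**
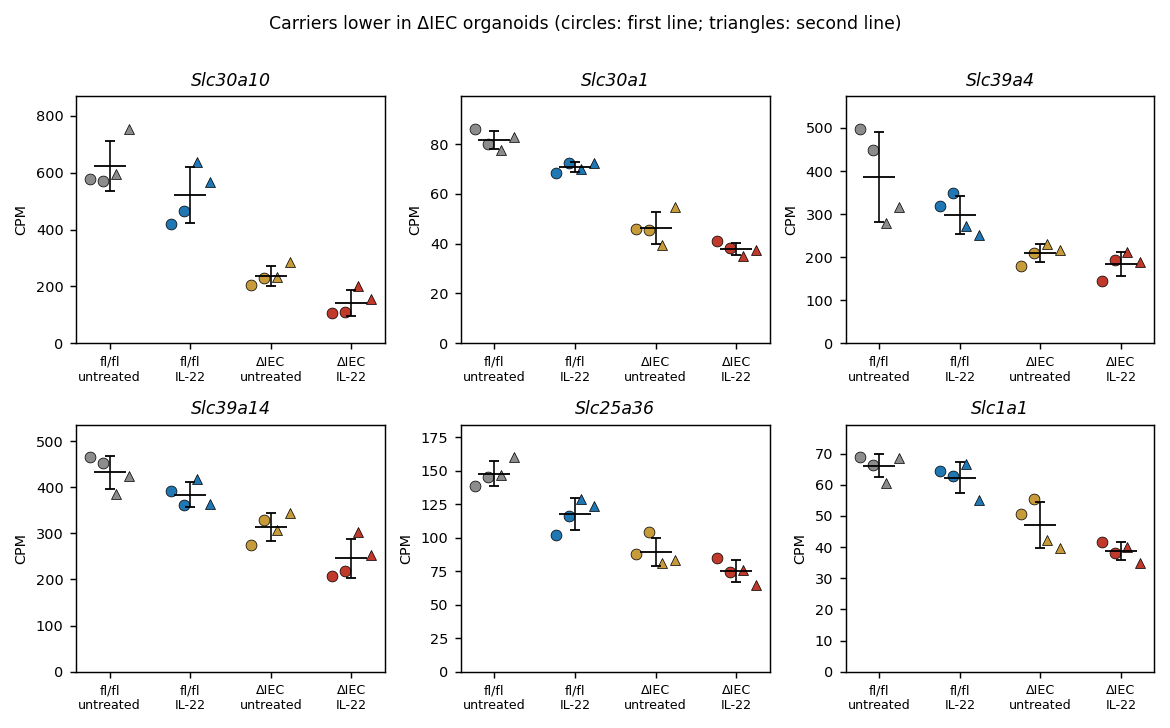
Level in CPM (y axis, from 0) of the 6 carriers Slc30a10, Slc30a1, Slc39a4, Slc39a14, Slc25a36 and Slc1a1 in each of the 16 cultures by group, circles for the first and triangles for the second line of a genotype; the bar and whiskers are mean ± SD of 4 cultures. In each treatment the ΔIEC cultures lie below the fl/fl cultures, and for Slc39a4 the first fl/fl line lies above the second before treatment.

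Slc25a36, the mitochondrial nucleotide carrier, stood at 148 ± 9.18 CPM in untreated fl/fl and 89.2 ± 10.5 CPM in untreated ΔIEC organoids (log2 difference -0.72 ± 0.10, adjusted p = 7.08e-05). With IL-22 the difference was -0.66 ± 0.10 (adjusted p = 7.53e-05). Slc1a1, the glutamate importer, was lower by 0.48 ± 0.10 and 0.69 ± 0.10 on the log2 scale (adjusted p = 0.003 and 7.17e-05). Slc38a1, the glutamine importer, was lower by 0.59 ± 0.14 and 0.70 ± 0.14 (adjusted p = 0.00627 and 0.00106).

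Some carriers were lower in ΔIEC organoids before IL-22 and missed the threshold with it. Slc5a1 differed by -0.60 ± 0.12 untreated (adjusted p = 0.002) and by -0.41 ± 0.12 with IL-22 (adjusted p = 0.0148). Slc2a2 differed by -0.95 ± 0.22 and -1.07 ± 0.32 (adjusted p = 0.00418 and 0.0155). Both amino acid exits also passed only untreated, Slc43a2 at -0.70 ± 0.17 (adjusted p = 0.00802) and Slc16a10 at -0.58 ± 0.13 (adjusted p = 0.00339). The call for Slc43a2 held in 7 of 20 alternative analyses and was lost by limma-voom, and that for Slc2a2 held in 12 of 19 and was lost by DESeq2. The interaction did not pass for any of them, so a change of the genotype difference with treatment was not detected.

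Other carriers passed only with IL-22. Slc46a1 was lower in ΔIEC organoids by 0.95 ± 0.15 (adjusted p = 0.000143), Slc28a2 by 1.32 ± 0.34 (adjusted p = 0.00607) and Slc16a1 by 0.33 ± 0.07 on the log2 scale (adjusted p = 0.00235). The sulfate importer Slc13a1 was the 1 carrier that passed as higher, by 0.71 ± 0.18 (adjusted p = 0.00485). The call for Slc28a2 held in 8 of 20 alternative analyses and that for Slc13a1 in 12 of 20.

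A few low amino acid carriers had higher means in ΔIEC organoids without passing. Slc6a19 stood at 5.26, 3.83, 9.07 and 7.49 CPM in untreated fl/fl and at 18.4, 18.9, 14.1 and 7.06 CPM in untreated ΔIEC cultures (log2 difference 1.28 ± 0.47, adjusted p = 0.0589). With IL-22 it stood at 2.77, 2.57, 4.88 and 2.70 CPM in fl/fl and at 16.6, 15.3, 1.81 and 2.89 CPM in ΔIEC cultures (1.39 ± 0.54, adjusted p = 0.0545). The higher mean with IL-22 came from the first ΔIEC line, while the second overlapped the fl/fl cultures. Slc6a20a with IL-22 had 37 reads in ΔIEC against 8 in fl/fl cultures, a ratio of 5.61 (counting interval 2.57 to 13.9, adjusted p = 0.0138). The carnitine importer Slc22a5 was higher in ΔIEC organoids without overlap and without passing. Its mean was 27.8 against 20.5 CPM untreated and 28.9 against 22.7 CPM with IL-22. With IL-22, Slc6a6 and Slc29a1 were also higher without overlap and did not pass. Over all tested genes 10.6% untreated and 15.4% with IL-22 were wholly higher in ΔIEC organoids.

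The lines of a genotype differed for some carriers. In IL-22–treated ΔIEC cultures the line means differed at least 2-fold for 5 of 37 carriers, against 2.95% of all genes. The second line was lower for Slc2a2 (4.32 against 15.7 CPM), Slc6a19 (2.35 against 16 CPM), Slc7a8 (12 against 30.6 CPM) and Slc5a8 (0.881 against 2.35 CPM), and higher for Slc28a2 (30.4 against 8.05 CPM). In untreated ΔIEC cultures 2 carriers (Slc6a20a and Slc5a8) differed as much, in untreated fl/fl 1 (Slc6a20a) and in IL-22–treated fl/fl 1 (Slc6a14), against 1.27%, 3.15% and 2.1% of all genes. With 2 cultures per line these are descriptions without a test.

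Some helper proteins were lower in ΔIEC organoids in each treatment. Atp1b1, a subunit of the sodium pump that keeps up the gradient used by the sodium-driven carriers, was lower by 0.59 on the log2 scale untreated (adjusted p = 1.71e-05) and by 0.59 with IL-22 (adjusted p = 7.51e-06). Bsg was lower by 0.79 and 1.14 (adjusted p = 0.00587 and 0.000176). Slc3a2, Pdzk1 and Slc9a3r1 differed by less than 0.1 on the log2 scale in either treatment.

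Of the 71 further carriers tested, 3 were higher and 11 lower in untreated ΔIEC organoids (4.23% and 15.5%). With IL-22, 5 were higher and 21 lower (7.04% and 29.6%). Over all genes 3.78% were higher and 5.98% lower untreated, and 9.91% and 9.84% with IL-22. Of the 37 tested among the 42 carriers, 29.7% were lower untreated and 27.0% with IL-22. The shares lower in the 2 lists were thus close with IL-22 and apart untreated, and their difference was not tested. Beside these differences, 6 of 10 Paneth cell markers and 5 of 10 goblet cell markers were lower in untreated ΔIEC organoids, and 8 and 6 of 10 with IL-22. Of the 21 enterocyte markers 1 was higher and 1 lower untreated, and 3 were higher and 2 lower with IL-22. Of 12 stem cell markers 3 were higher and 1 lower untreated, and 3 and 3 with IL-22, and of 9 tested enteroendocrine markers 1 and then 3 were lower. The summed level of 6 distal small intestine markers was 27.8 to 43.1 CPM in untreated fl/fl and 13.3 to 19.3 CPM in untreated ΔIEC cultures, and 22.7 to 44.3 against 10.1 to 21.2 CPM with IL-22. Of these markers 3 were tested, and 1 passed as lower untreated and 0 with IL-22. The sum of 6 proximal markers had a lower mean in ΔIEC organoids too, with overlap. Its mean was 2581 against 1923 CPM untreated and 1458 against 855 CPM with IL-22. Of the proximal markers 0 passed untreated and 1 passed as lower with IL-22. Of 13 proliferation markers 4 were higher untreated and 11 with IL-22. The part of these shifts in the carrier differences was not tested.

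The genotype comparison rests on 2 lines against 2. With the cultures of each line summed, 0 carriers passed untreated and 2 passed as lower with IL-22, Slc30a1 and Slc30a10. Leaving out 1 line at a time left 4 to 12 carriers lower untreated, the fewest without the first fl/fl line. For these fits too the share of all genes that passed was not taken. The untreated calls for Slc38a1, Slc39a14, Slc1a1 and Slc16a10 held in 12, 13, 14 and 14 of 20 alternative analyses.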

How the data were processed

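Small intestinal organoids were profiled by RNA sequencing in 16 cultures (4 per group), grouped by the sample labels. The authors aligned reads to GRCm38 (mm10) with TopHat2 and took gene values from HTSeq, and deposited them as whole-number counts per gene, with no normalization. The submitters' processing notes also name cutadapt and DESeq2. Labels and methods describe the library kit differently (TrueSeq RNA v2 or a stranded total RNA kit). How HTSeq treated strand and which annotation release it used are not given in the sources used here, so reads of overlapping or antisense genes may not be separable.

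The 5 summary lines of the HTSeq output were left out. They hold reads that fell on no counted feature (38.02% to 40.1% of all), were placed at several sites (21.5% to 24.2%) or were ambiguous (0.740% to 1.13%). The share counted on genes was 36.3% to 38.3%. Symbols, positions and exon lengths came from GENCODE mouse release M21 (GRCm38), with 49326 of 49585 genes (99.48%) matched by identifier without version.

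In R 4.3.3, edgeR 4.0.16 was used with filterByExpr (12559 genes kept), TMM scaling and 1 quasi-likelihood fit of 4 group means. Tests were two-sided, with Benjamini-Hochberg adjustment over all tested genes of a comparison and a threshold of 0.01. SEs were taken as the size of the log2 change over the root of F. CPM use TMM-scaled library sizes, and log2 CPM a prior count of 2. Against groups with no read, a fold is a lower bound at a floor of 3 counts per culture. Where 1 group had at most 3 counts in every culture, a ratio of pooled reads is given with its exact 95% interval, which like the floor covers counting error only. The fit was tested on simulated counts.

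Alternatives were RLE scaling, no filter, at least 10 counts in every culture, the compared groups only, an adjusted p of 0.05, DESeq2 1.42.0, limma-voom (limma 3.58.1) with correlation within lines (0.261), summed lines, each culture or line left out, and the line as a replicate block. The organoid numbers in the labels mark the line, and so pair treated with untreated cultures of that line. Deviations from group means correlated across genes at 0.263 to 0.438 within fl/fl lines and 0.0563 to 0.321 within ΔIEC lines, and at -0.435 to -0.0779 between lines. Lines are nested in genotype, so the block serves only the IL-22 effects and their difference. No 2 libraries were duplicates.

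The members and the lists of markers, helpers and further carriers were chosen with earlier results of these data known. Every carrier is accounted for, each that passed in a comparison is named with values, and of the other lists 5 of the 7 tested helpers and the 3 further carriers with the smallest p per direction of each IL-22 comparison are named. Some genes of these lists are not reported here. Promoter sequences are from RefSeq (GRCm38.p6), with 33 of the 42 carriers matched.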

Additional observations from a re-analysis of the deposited data

Results flagged for a closer look

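In 168 groups of 4 cultures (42 carriers in 4 groups), 7 had 1 culture whose gap to the nearest other exceeded Dixon's 95% limit, and chance flags about 1 in 20 groups. Slc6a19 reached 4.88 CPM in replicate 3 of IL-22–treated fl/fl, where the others were at 2.57 to 2.77. Slc36a1 reached 20.9 CPM in replicate 3 of untreated fl/fl, beside 13.7 to 14.0. Slc5a6 reached 16.2 CPM in replicate 1 of IL-22–treated fl/fl, beside 12.6 to 13.2. Slc28a2 reached 18.1 CPM in replicate 3 of untreated ΔIEC, beside 6.84 to 8.31. Slc30a10 reached 756 CPM in replicate 4 of untreated fl/fl, beside 571 to 595. Slc13a2 (0.284 CPM in replicate 2) and Slc34a2 (0.289 CPM in replicate 4) each had a single read in IL-22–treated ΔIEC organoids, where the other cultures had 0.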

How the results depend on the processing

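No carrier that passed in a comparison turned its direction under any alternative. The counts of carriers moved as follows, with the cause not tested and without the share of all genes that passed in each alternative. With the cultures of a line summed, 1 rose and 2 fell with IL-22 in fl/fl, 4 fell in ΔIEC organoids, and in ΔIEC against fl/fl 0 were lower untreated and 0 higher and 2 lower with IL-22. Without the first fl/fl line 7 fell with IL-22 in fl/fl and 4 were lower in untreated ΔIEC organoids. Leaving out the second fl/fl line, 1 rose and 9 fell with IL-22 in fl/fl, and in ΔIEC against fl/fl 1 was higher untreated and 0 with IL-22. Without the first ΔIEC line 6 fell with IL-22 in ΔIEC organoids, 7 were lower untreated and 0 higher with IL-22. Without the second ΔIEC line 8 fell with IL-22, 7 were lower and 1 higher untreated, and 2 were higher with IL-22. With the line as a replicate block 5 carriers rose with IL-22 in ΔIEC organoids. Beside the calls it added, named with their values above, the block changed no other call. With no filter on low counts 5 rose with IL-22 in ΔIEC organoids, and in ΔIEC against fl/fl 1 was higher untreated and 3 with IL-22. With an adjusted p of 0.05, 1 was higher untreated and 4 higher and 17 lower with IL-22. DESeq2 gave 2 higher with IL-22 and the fit of the compared groups only gave 0. Leaving out 1 culture at a time gave 4 in each case higher and 11 to 15 lower with IL-22 in fl/fl, 3 to 4 higher and 10 to 14 lower in ΔIEC organoids, 0 higher and 5 to 11 lower in untreated ΔIEC against fl/fl, and 0 to 2 higher and 8 to 12 lower with IL-22. The interaction passed for 0 carriers in every alternative run. The carriers above 10 CPM per kb numbered 20 also on raw totals. Slc5a1 and Slc2a2 (IL-22, both genotypes), Slc13a1 and Slc46a1 (IL-22 in ΔIEC) and Slc30a1 and Slc30a10 (genotype with IL-22) passed in every alternative in which they could be tested. Depth limits carriers below about 3 reads per culture.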

Other observations

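The metallothioneins Mt1 and Mt2, small zinc-binding proteins, were looked at after the values of the zinc carriers had been seen, and stood the other way from the zinc exporter Slc30a1. Mt1 was at 304 ± 11.1 CPM in untreated fl/fl and 406 ± 22.2 CPM in untreated ΔIEC organoids (SD, n = 4, log2 difference 0.42 ± 0.08, edgeR adjusted p = 0.00175), and at 352 ± 18.5 against 429 ± 56.9 CPM with IL-22 (0.29 ± 0.08, adjusted p = 0.012). Mt2 was at 107 ± 1.68 against 144 ± 19.5 CPM untreated (0.44 ± 0.11, adjusted p = 0.0107) and at 108 ± 10.5 against 162 ± 26.5 CPM with IL-22 (0.59 ± 0.11, adjusted p = 0.000602). At a threshold of 0.01, Mt1 passed untreated and Mt2 with IL-22. All 4 untreated ΔIEC cultures were above all 4 untreated fl/fl cultures for both genes, while Slc30a1 was lower in all of them. Over all tested genes, 10.6% were wholly above and 12.6% wholly below in this comparison.

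Among the further carriers the zinc transporter Slc30a2 was lower in ΔIEC organoids, with log2 differences of -2.0 ± 0.23 untreated (adjusted p = 1.09e-05) and -1.97 ± 0.24 with IL-22 (adjusted p = 1e-05). It had the lowest log2 difference of the 20 tested further phosphate, zinc, copper and magnesium carriers. Of these, 5 were lower untreated and 4 with IL-22, and 0 were higher. Their median log2 difference was 0.035 and 0.006. The glycine importer Slc6a9 was lower by 0.98 ± 0.15 and 1.03 ± 0.14. Neither passed as changed by IL-22 in ΔIEC organoids, and Slc6a9 rose by 0.59 ± 0.13 with IL-22 in fl/fl (adjusted p = 0.00167). These carriers too were picked after their values were seen.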
